A study of Rattus norvegicus with 2 samples.

Results

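Venous endothelial cells line the veins and the postcapillary venules. They were taken here as the cells of 2 single-cell libraries of skeletal muscle in which transcripts of venous genes were found: the barcodes held at least 2 of the endothelial genes Pecam1, Cdh5, Emcn and Ptprb and at least 2 of the venous genes Vwf, Selp, Ackr1 and Lrg1. They held at most 1 of the arterial genes Sema3g, Gja4, Gja5 and Hey1, and none of Ptprc (leukocytes), Pdgfra (fibroblasts) and Prox1 (lymphatic endothelium). A further requirement was at least 500 transcript counts (unique molecular identifiers, UMIs), 200 genes and at most 20% of UMIs from mitochondrial genes. In all, 366 of 23416 barcodes met the rule. Because measured counts of these genes chose the cells, their levels are given as a description, and no cell type can be claimed from them alone.

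The venous wall is where leukocytes leave the blood in inflamed tissue. Its endothelium stores P-selectin (Selp) with von Willebrand factor (Vwf) in Weibel-Palade bodies and brings both to the surface or into the blood within minutes of stimulation. E-selectin (Sele), Icam1 and Vcam1 are made on demand, and the atypical receptor Ackr1 binds and presents chemokines without signalling. Capillary endothelium of muscle, in contrast, is specialised for exchange and carries the lipase anchor Gpihbp1 and the carbonic anhydrase Car4.

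One library came from a single rat-mouse chimera, a Sprague Dawley (SD) rat embryo injected at the morula stage with mouse induced pluripotent stem cells that carried a CRISPR-edited Dmd mdx gene and the Pax7-nGFP reporter. The other came from a single SD rat without mouse cells. In both, muscle of the whole body was minced and digested with Collagenase II, red cells were lysed, and live cells were sorted on Calcein Violet before 3′ capture on the 10x system. The labels give no age. Barcodes of the chimera were called mouse where at least 80% of their UMIs were on mouse genes and rat where at most 20% were, so 3 populations were described: 111 chimera mouse cells, 138 chimera rat cells and 117 SD rat cells. Mouse and rat counts of a gene of the same symbol were added. With 1 animal and 1 library a group, no difference between populations has a replicate check. The intervals given are exact 95% intervals (Poisson for levels, Clopper-Pearson for shares), which cover counting error only, and a difference between the libraries cannot be told apart from one between the 2 animals.

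The chimera library held 118872850 UMIs over 13299 barcodes and the SD library 70957559 over 10117, with medians of 8052 and 6385 UMIs in the barcodes that passed the filters on depth and mitochondrial share. The venous cells were of unequal depth. Their median was 10471 UMIs (932 to 68146) in chimera mouse cells, 7506 (1824 to 53796) in chimera rat cells and 4831 (528 to 29964) in SD rat cells. Scrublet marked 444 of 12174 chimera barcodes and 164 of 8980 SD barcodes as doublets, 1 of them among the venous cells, which was kept. The libraries shared 43 barcode sequences, 3 of which were venous cells. No UMI of EGFP was found in any venous cell of the chimera, the one library in which it was counted. A further 40 chimera barcodes met the venous rule with a mouse share of UMIs between the limits (20.7% to 78.6%, median 47.9%) and were left out of all comparisons.

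The 4 venous genes came together in different ways in the 3 populations. All 4 were found in 62 chimera mouse, 30 chimera rat and 14 SD rat cells, of 111, 138 and 117. Exactly 3 were found in 26, 22 and 19 cells. The pair Vwf and Lrg1, without either of the more restricted genes Selp and Ackr1, accounted for 7 chimera mouse, 71 chimera rat and 62 SD rat cells. Cells with that pair alone were thus few among mouse cells and more than any other class among rat cells of both animals.

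**Figure D1:**
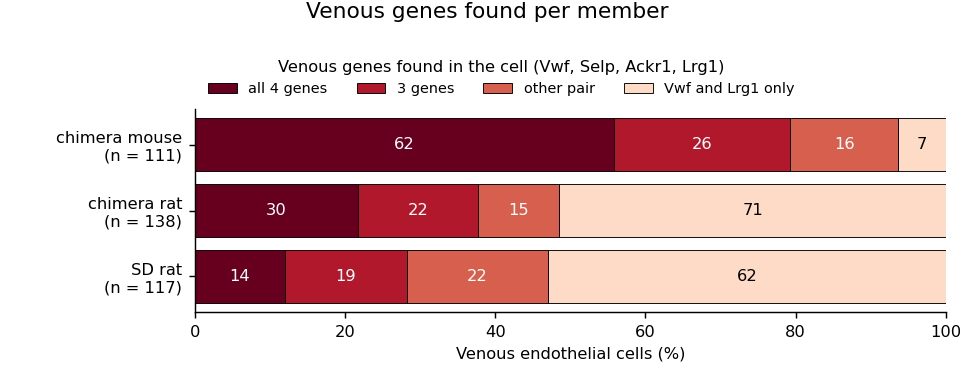
Share of venous endothelial cells (%) by the venous genes found in them, for each population, with the number of cells printed in each bar segment. Cells with Vwf and Lrg1 only were 7 of 111 in chimera mouse, 71 of 138 in chimera rat and 62 of 117 in SD rat cells.

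Selp, which encodes the adhesion receptor P-selectin, stood at 3714 CPM (3601 to 3831) in chimera mouse, 1085 CPM (1022 to 1152) in chimera rat and 1514 CPM (1416 to 1617) in SD rat cells, where CPM is the number of UMIs per 1000000 of the group's summed UMIs on symbols named in both species, without mitochondrial genes. Ackr1, the atypical chemokine receptor, stood at 1173 CPM (1109 to 1239), 427 CPM (387 to 469) and 176 CPM (143 to 213). Both were highest in the chimera mouse cells. In cells with Selp or Ackr1 found, the lowest, median and highest numbers of Selp UMIs a cell were 0, 24.5 and 197 in chimera mouse, 0, 5 and 142 in chimera rat and 0, 5 and 154 in SD rat cells, so the ranges overlapped widely. Lrg1, a secreted glycoprotein that modifies TGF-beta signalling, stood at 1060.4 CPM (1000.1 to 1123), 799 CPM (745 to 857) and 563 CPM (504 to 627), and Vwf at 679 CPM (631 to 729.8), 482 CPM (440.3 to 527) and 575 CPM (515 to 639.5). The endothelial sialomucin Emcn, at 857, 799 and 670.3 CPM, was close to its level in the endothelial cells with none of the 4 venous genes (698, 548 and 595 CPM) and did not set the venous cells apart. Free RNA in the droplets can give such UMIs. Among barcodes that held Pdgfra and at least 2 of the fibroblast genes Dcn, Col1a1 and Col3a1, and lacked Ptprc, Cdh5 and Pecam1 (median depths 15445, 12646 and 11421.5 UMIs in the mouse, chimera rat and SD rat populations), Ackr1 was found in 16.2%, 13.3% and 12.2% of cells, Selp in 3.03%, 3.33% and 1.13%, Vwf in 1.01%, 1.69% and 0.714%, and Lrg1 in 2.02%, 1.37% and 1.05%. A single UMI of Ackr1 was therefore a weaker sign of expression than a UMI of the other 3 genes.

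The threshold of 2 venous genes divided cells that differed by 1 transcript species. Exactly 2 venous genes were found in 23 chimera mouse, 86 chimera rat and 84 SD rat members, and exactly 1 was found in 152, 305 and 389 endothelial cells just outside the rule. The gene found in those cells was most often Vwf in the mouse (63.8% of cells, against 15.8% for Lrg1) and most often Lrg1 in the rat (81.6% of chimera rat and 76.9% of SD rat cells, against 13.1% and 19.5% for Vwf). Among the cells just outside, Lrg1 stood at 88.6 CPM in the mouse and at 554 and 572 CPM in the chimera rat and SD rat, the last of which was no lower than in SD venous cells. These levels follow in part from the rule, since cells just outside it were defined by holding 1 of its genes.

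The label was checked on 12 further venous genes that the rule did not use, among them the transcription factor Nr2f2, the receptors Ephb4, Nrp2 and Il1r1, the adhesion genes Vcam1, Icam1 and Sele, the diaphragm protein Plvap, the prostaglandin transporter Slco2a1, the carboxypeptidase Cpe and the metalloproteinase Tll1. A median of 8 of the 12 was found in chimera mouse cells with Selp or Ackr1, and 6 in both chimera rat and SD rat cells of that class. In the endothelial cells with none of the 4 rule genes the medians were 2, 1 and 1. Cells with Vwf and Lrg1 only held a median of 2 in each rat population, and 5 in the 7 mouse cells. After every cell was thinned to 1000 UMIs, the mean number found was 3.23, 2.57 and 2.91 in cells with Selp or Ackr1 and 1.29, 0.535 and 0.742 in cells with Vwf and Lrg1 only. The summed level of the 12 genes had a median over cells of 7793, 5335 and 7412 CPM in cells with Selp or Ackr1, of 863, 609 and 794 CPM with Vwf and Lrg1 only, and of 720, 453 and 438 CPM with none. In both rat populations the cells with Vwf and Lrg1 only were thus nearer to endothelial cells without the rule genes than to cells with Selp or Ackr1, and they are named by their genes below. As groups, the 104 chimera mouse, 67 chimera rat and 55 SD rat cells with Selp or Ackr1 went with the label. Single cells did not always: none of the 12 genes was found in 3 of the chimera rat and 3 of the SD rat cells of that class. Results are given for all members and for cells with Selp or Ackr1. Where cells are compared with endothelial cells with none of the rule genes, values of genes and lists are for the latter class unless said otherwise.

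**Figure D2:**
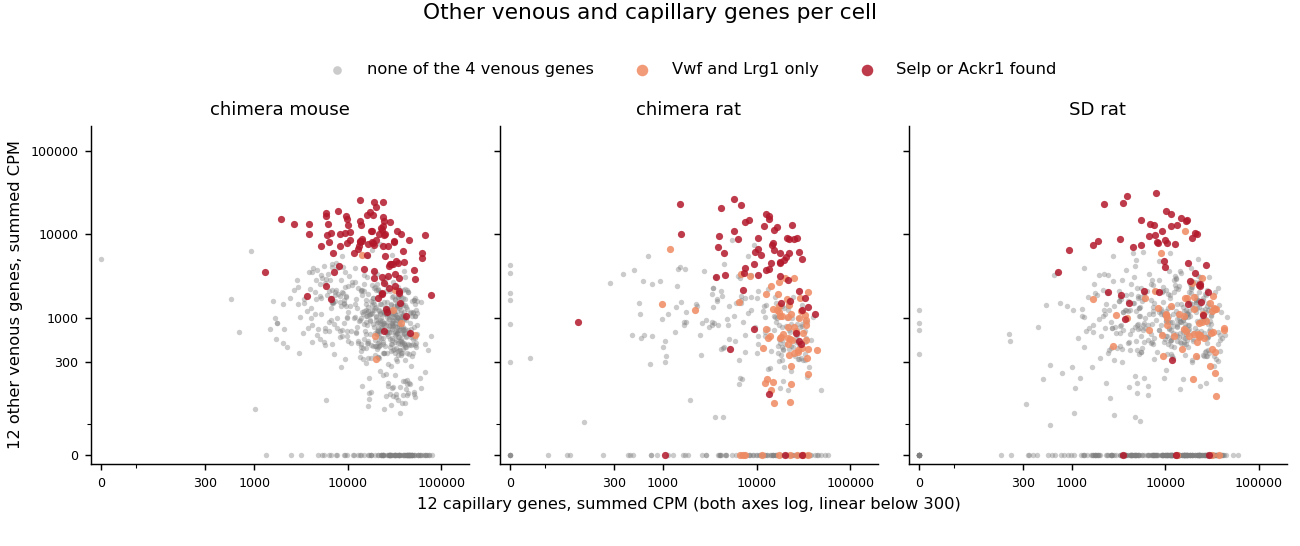
Summed level (CPM) of 12 venous genes outside the rule (vertical axis) against that of 12 capillary genes (horizontal axis), 1 point a cell; both axes are logarithmic, and linear near 0. Cells with Selp or Ackr1 (red) lay mostly above the endothelial cells with none of the 4 rule genes (grey), whereas cells with Vwf and Lrg1 only (orange) lay among the grey points.

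The venous share of the vascular endothelium depended on this distinction. By the full rule, venous cells were 111 of 1009 vascular endothelial cells in chimera mouse (11.001%, 9.14 to 13.1), 138 of 759 in chimera rat (18.2%, 15.5 to 21.1) and 117 of 1209 in SD rat cells (9.68%, 8.07 to 11.5). Cells with Selp or Ackr1 were 10.3% (8.50 to 12.4), 8.83% (6.91 to 11.1) and 4.55% (3.45 to 5.88). Chimera rat cells were highest by the first count and lay within the interval of chimera mouse cells by the second. Depth moved in the same order as the second count, and its part in these shares was not tested beyond the thinned values given in the closing section.

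Within the chimera, mouse cells made up 1009 of the 1768 vascular endothelial cells (57.1%). They were 111 of 249 venous cells (44.6%, 38.3 to 51.0), 104 of 171 cells with Selp or Ackr1 (60.8%, 53.1 to 68.2) and 7 of 78 cells with Vwf and Lrg1 only (8.97%, 3.68 to 17.6). For cells with Selp or Ackr1, the interval of the mouse share held the share in the vascular endothelium. Of the cells with none of the 4 genes, 70.0% (631 of 902) were mouse.

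For a comparison across genes, summed CPM of venous cells was set against that of the endothelial cells of the same population with none of the 4 rule genes (631, 271 and 649 cells). Ratios are log2 of CPM plus 10, which understates the change of low genes, and a gene counts as higher or lower at a 2-fold ratio. Over all members, 265 of 6134 genes were higher in chimera mouse cells (4.32%) and 243 lower (3.96%). In chimera rat cells, 99 of 5627 were higher (1.76%) and 130 lower (2.31%), and in SD rat cells 72 of 4417 (1.63%) and 81 (1.83%). With members limited to cells with Selp or Ackr1, 282 of 5898 genes were higher (4.78%) and 277 lower (4.70%) in chimera mouse, 154 of 4047 (3.81%) and 192 (4.74%) in chimera rat, and 98 of 2288 (4.28%) and 103 (4.50%) in SD rat cells. The median log2 ratio over all genes was -0.15, -0.00 and 0.02 for all members and -0.14, -0.04 and 0.01 for cells with Selp or Ackr1. With ratios centred on that median, the counts over all members in chimera mouse cells became 324 higher and 160 lower. With the other endothelial cells limited to those at least as deep as the 25th percentile of the members, a choice made after seeing the data, 185 genes were higher in chimera rat cells. The number of genes measured fell with the depth and number of cells.

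The other venous genes were higher in cells with Selp or Ackr1 of all 3 populations. Of the 12, 9 of 11 measured were higher in chimera mouse (median log2 ratio 3.70), 6 of 7 in chimera rat (2.44) and 5 of 6 in SD rat cells (3.25), and none was lower. Because all were venous genes of the same cells that the rule had picked by other venous genes, this is a description of the cells. Over all members the counts were 9 of 11, 6 of 9 and 5 of 6, with medians of 3.57, 1.14 and 2.39.

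Plvap, which forms the diaphragms of fenestrae and of venular openings, had a large ratio in every population. It stood at 1201 CPM (1134 to 1271) in chimera mouse, 2041 CPM (1924 to 2164) in chimera rat and 1704 CPM (1545 to 1874) in SD rat cells with Selp or Ackr1, against 15.7, 24.7 and 32.9 CPM in cells with none of the rule genes. The log2 ratios were 5.56, 5.89 and 5.32. A UMI of Plvap was found in 92.3%, 73.1% and 69.1% of the cells with Selp or Ackr1, so the level was not that of a few cells. The lowest, median and highest numbers of Plvap UMIs a cell were 0, 6.5 and 64 in chimera mouse, 0, 4 and 186 in chimera rat and 0, 3 and 82 in SD rat cells. In cells with Vwf and Lrg1 only, Plvap stood at 10.6, 93.3 and 53.1 CPM, far under the level in cells with Selp or Ackr1.

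Tll1, a metalloproteinase that processes collagens and BMP antagonists, stood at 737 CPM (684 to 792), 971 CPM (891 to 1057) and 1946 CPM (1776 to 2128), with log2 ratios of 3.70, 4.92 and 4.63. Il1r1, the receptor of interleukin 1, stood at 675, 439 and 513 CPM against 41.4, 144 and 75.7. Both were higher in all 3 populations. Nr2f2 (COUP-TFII), the transcription factor that maintains venous identity, stood at 251 CPM (220.5 to 284), 229.6 CPM (191 to 273) and 68.6 CPM (40.0 to 109.9). In cells with none of the rule genes it stood at 27.4, 128 and 24.8 CPM, so it was more than 2-fold higher in chimera mouse cells. The SD rat levels also lay more than 2-fold apart, but the gene had under 20 expected UMIs there and was not counted. In chimera rat cells it was already present outside the venous class. One chimera rat cell held 20.5% of the Nr2f2 UMIs of its class.

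The receptors for leukocytes differed in how widely they were found. Vcam1, a ligand of leukocyte integrins, stood at 1098 CPM (1034 to 1165), 1215 CPM (1125 to 1311) and 1474 CPM (1326 to 1633) in cells with Selp or Ackr1, and at 29.8, 53.6 and 14.9 CPM in cells with none of the rule genes. It was found in 78.8%, 65.7% and 49.1% of the former. One SD rat cell held 36.7% of the SD Vcam1 UMIs, so the gene was not counted there. Fibroblasts express Vcam1 as well, and it was found in 41.4%, 13.7% and 7.61% of the fibroblast-type barcodes.

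Sele, the E-selectin made by endothelium under cytokine stimulation, stood at 1642 CPM (1563 to 1723) in chimera mouse, 349 CPM (301 to 402) in chimera rat and 379.5 CPM (307 to 464) in SD rat cells. A UMI of Sele was found in 68.3% (58.4 to 77.1), 23.9% (14.3 to 35.9) and 21.8% (11.8 to 35.0) of cells, and after thinning to 1000 UMIs in 45.6%, 10.4% and 11.1%. The lowest, median and highest Sele UMIs a cell were 0, 7 and 100 in the mouse, against 0, 0 and 113 and 0, 0 and 44 in the rats. Sele was thus spread over most of the chimera mouse cells but concentrated in few rat cells, where 1 cell held 58.5% (chimera) and 46.8% (SD) of its UMIs. Outside the venous class it stood at 2.05, 3.22 and 0.620 CPM. Icam1, the integrin ligand on which leukocytes arrest, stood at 661 CPM (612 to 714), 846 CPM (771 to 926) and 1078 CPM (953 to 1215) against 278, 148 and 65.7 CPM, with log2 ratios of 1.22, 2.44 and 3.84. Its levels in venous cells of the 3 populations were closer to each other than its levels outside them.

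**Figure D3:**
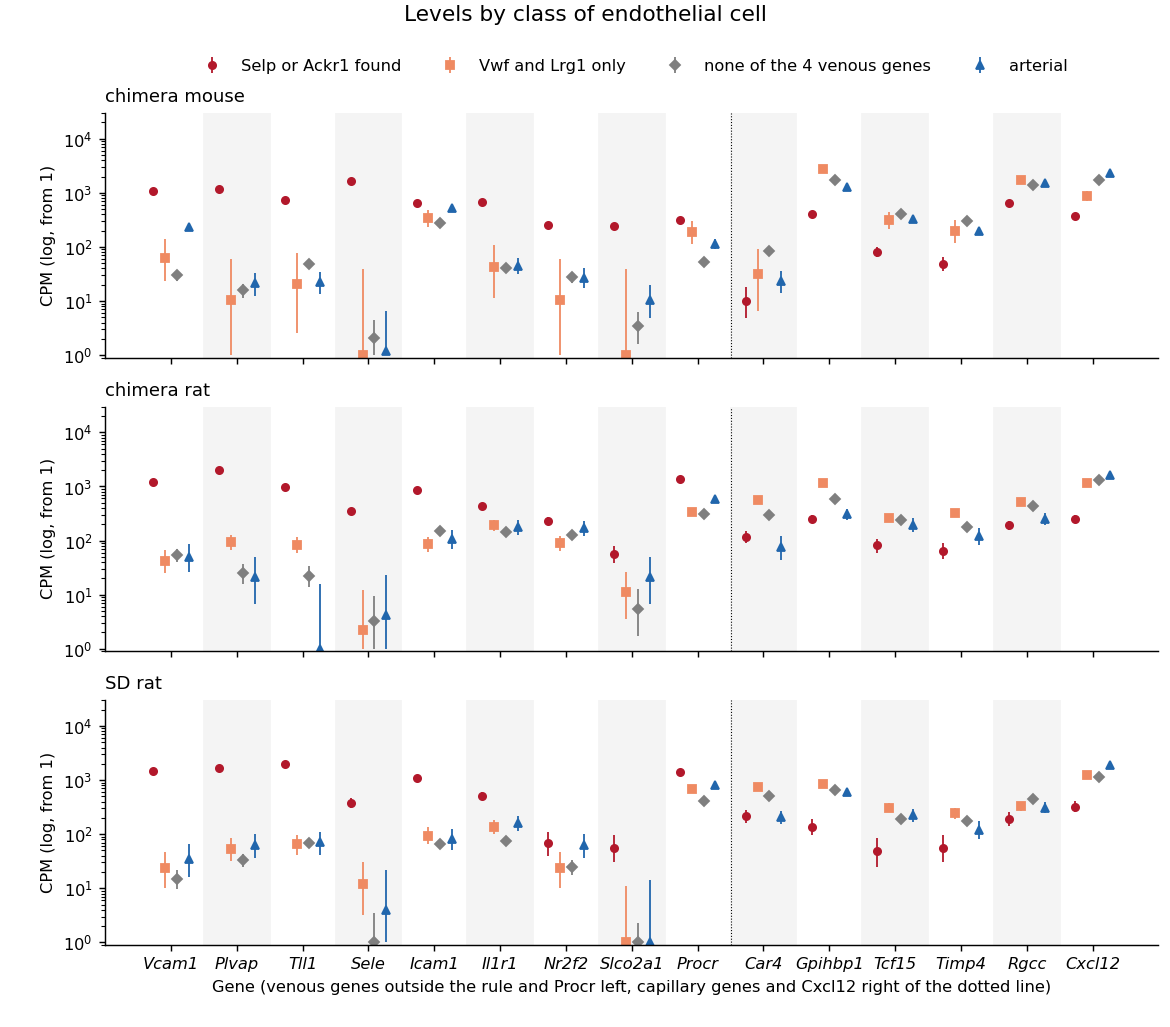
Level (CPM, logarithmic axis from 1) of venous, adhesion and capillary genes and Procr in cells with Selp or Ackr1, in cells with Vwf and Lrg1 only, in endothelial cells with none of the 4 rule genes and in arterial cells, for each population; points are levels over the summed UMIs and bars exact 95% Poisson intervals. Plvap reached 1201, 2041 and 1704 CPM in cells with Selp or Ackr1 and Gpihbp1 was lowest in them, at 399, 251 and 137 CPM.

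Across the leukocyte adhesion list, which shares Sele, Icam1 and Vcam1 with the venous list, 3 of 9 genes measured were higher in chimera mouse, 2 of 8 in chimera rat and 1 of 6 in SD rat cells with Selp or Ackr1, with list medians of -0.14, 0.54 and 0.27. The genes higher were those 3 (Icam1 and Vcam1 in chimera rat, Icam1 in SD rat). Podxl, a sialomucin of the luminal surface, was lower in chimera rat cells (-1.16). Madcam1, the addressin of mucosal venules, was found in 4 chimera rat and 3 SD rat cells and stood at 36.2 and 36.3 CPM.

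Among the chemokines, Cxcl12, which retains CXCR4-bearing cells and is made by arterial and capillary endothelium, was lower in cells with Selp or Ackr1 of all 3 populations. It stood at 372, 253 and 323 CPM in these cells against 1717, 1311 and 1135 CPM, with log2 ratios of -2.17, -2.33 and -1.78. Over all members it was lower in chimera mouse cells, and no chemokine was lower in either rat. Cxcl1, a neutrophil attractant, Cxcl10, an interferon-induced attractant of T cells, and Cxcl16 were higher in chimera mouse cells (1.31, 2.14 and 1.34). Cxcl10 stood at 3199.7 CPM (3089 to 3313) in those cells against 154 CPM (123 to 190.0) and 133 CPM (91.7 to 187) in the rat cells, where cells with none of the rule genes stood at 274 and 142 CPM. Ccl2, a monocyte attractant, was lower in SD rat cells (-1.68).

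Capillary genes were lower in cells with Selp or Ackr1. Of the 14 genes listed, 12 were measured. In that class, 9 of 12 were lower in chimera mouse, 5 of 10 in chimera rat and 5 of 10 in SD rat cells. The list medians were -1.71, -0.99 and -1.02. Over all members 8 of 12 were lower in chimera mouse cells, but only Btnl9 of 11 in each rat. The medians over all members were -1.51, 0.04 and 0.03. Among cells with Selp or Ackr1, Rgcc, Car4, Gpihbp1, Tcf15 and Timp4 were lower in all 3 populations, while Aqp7, Lpl, Kdr and Btnl9 were so in chimera mouse cells. The water channel Aqp1 was higher in chimera rat cells (1.20).

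Gpihbp1, which holds lipoprotein lipase on the capillary surface, stood at 399 CPM (360.3 to 439.8), 251 CPM (211 to 297) and 137 CPM (95.1 to 192) in cells with Selp or Ackr1. The lowest, median and highest UMIs a cell were 0, 0 and 58 in chimera mouse, 0, 0 and 27 in chimera rat and 0, 0 and 19 in SD rat cells, and the median cell held none. In cells with Vwf and Lrg1 only the level was 2819, 1170.2 and 844 CPM, and in cells with none of the rule genes at 1724, 587 and 645 CPM. The cells with Vwf and Lrg1 only were thus the highest of the classes for this capillary gene. Car4, a carbonic anhydrase of the capillary surface, gave the same order in the rats, at 118, 571 and 295 CPM in the chimera and 218, 735 and 505 CPM in the SD rat. Tcf15, a transcription factor of muscle capillaries, stood at 81.5, 81.4 and 48.5 CPM in cells with Selp or Ackr1 and at 410.1, 236 and 191 CPM outside the venous class.

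Some of the arterial genes outside the rule were lower too. In chimera mouse cells with Selp or Ackr1, 4 of 10 measured were lower and 2 higher. Efnb2, the arterial ligand of the venous receptor Ephb4, stood at 20.1, 52.4 and 72.7 CPM against 111, 155 and 269.8. The Notch ligand Dll4 stood at 6.04, 12.7 and 28.3 CPM against 101, 87.9 and 166, and the guidance receptor Unc5b was lower in all 3 populations as well (-2.48, -1.71 and -2.01). The list medians were -0.47, -0.81 and -1.51. Over all members, 4 of 10 were lower in chimera mouse, 0 of 9 in chimera rat and 1 of 10 (Efnb2) in SD rat cells. The medians over all members were -0.36, -0.37 and -0.38. Eln, the elastin of vessel walls, was placed in that list for its arterial use but went the other way, at 657, 1219 and 1603 CPM and log2 ratios of 3.78, 2.86 and 3.14. Mgp, an inhibitor of calcification, was higher in chimera mouse cells (2.94) and lower in SD rat cells (-1.27), and Vegfc, a growth factor of lymphatic vessels, was higher in chimera rat cells (1.30).

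In the haemostasis list, Procr, the endothelial receptor of protein C, was higher in all 3 populations. It stood at 313 CPM (279 to 349.8), 1349 CPM (1254 to 1449) and 1417 CPM (1273 to 1574) in cells with Selp or Ackr1 against 53.4, 307 and 414 CPM. Of 9, 9 and 8 genes measured, 3, 1 and 1 were higher. The protease inhibitor Tfpi2 and the ectonucleotidase Entpd1 were the others in chimera mouse cells (2.52 and 2.82). Plat, tissue plasminogen activator, was lower in both rat populations (-1.32 and -1.24). Rab27a, which helps tether Weibel-Palade bodies, was the single gene of that organelle's list that was higher (1.30 in chimera mouse cells, of 5 genes measured), against 0 of 3 and 0 of 2 in the rats.

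Among endothelial transcription factors, Klf2, which is induced by laminar flow, was lower in cells with Selp or Ackr1 of all 3 populations. It stood at 825, 391 and 343 CPM against 1969, 1491 and 743. Over all members it was lower in chimera mouse cells alone. Lmo2 was higher in the rat populations (1.67 and 1.69), and Foxp1 in chimera mouse cells (1.15). Bmp4, a ligand of the BMP receptors, was higher in all 3 populations and stood at 95.6, 1067 and 876 CPM against 33.2, 177 and 181. Id3, a target of BMP signalling, was lower in cells with Selp or Ackr1 of each (-1.14, -1.77 and -1.98). Over all members Id3 passed 2-fold in no population. The VEGF receptors Kdr and Nrp1 were lower in chimera mouse cells (-1.44 and -1.30), and no VEGF or Tie receptor passed 2-fold in the rat cells.

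Of genes that respond to NF-kB and STAT3, 5 of 10 measured were higher in chimera mouse cells with Selp or Ackr1 (Nfkbia, Tnfaip3, Il6, Cebpb and Cebpd), 1 of 9 in chimera rat cells (Il6) and 0 of 8 in SD rat cells. Il6, the cytokine that signals through STAT3, stood at 1167, 758 and 452 CPM against 175, 342 and 342 CPM outside the venous class, and at 511, 1064 and 966 CPM in fibroblast-type barcodes. Of the interferon-induced genes, Ifit1 and Gbp2 of 9 measured were higher in chimera mouse cells (1.62 and 1.24) as were Ifit2 and Gbp2 of 4 in SD rat cells (1.16 and 2.58), and the 1 gene measured in chimera rat cells did not pass 2-fold. Over all members, Ifit3 and Gbp2 of 5 measured were higher in both chimera rat and SD rat cells. The immediate early genes, which tissue dissociation can induce, went down where they moved: Fos and Jun were lower in chimera mouse cells (-1.12 and -1.06), Fos, Fosb, Jun and Ier2 in chimera rat cells (-1.78, -1.12, -1.43 and -1.04), and Egr1 in SD rat cells (-1.05).

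Of the basement membrane genes, Col18a1, the precursor of endostatin, was higher (1.59) and the collagen IV chain Col4a1, the laminin chains Lama4 and Lamb1 and Sparcl1 were lower in chimera mouse cells (-1.10, -1.29, -1.10 and -1.01), of 11 measured. Lamb1 alone was lower in chimera rat cells (-1.68), of 10, and none of 10 passed in SD rat cells.

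Over all members, 3989 genes were measured in each of the 3 populations. Of these, 770 had a ratio above 0 in all 3 and 946 below 0, and at 2-fold 32 were higher and 4 lower in all 3. The 12 genes at the head of the ranking by their smallest ratio were Plvap, Tll1, Csf2rb, Lgals3, Eln, Dnm3, Pgm5, Tmem252, Hs3st1, Adamts4, Clu and Tm4sf1. Csf2rb, the shared beta chain of the receptors for GM-CSF and interleukins 3 and 5, had log2 ratios of 2.91, 3.66 and 3.09 in chimera mouse, chimera rat and SD rat cells. Lgals3, a galectin that binds surface glycans, had ratios of 3.96, 2.46 and 2.75, and Clu, an extracellular chaperone, had 4.24, 1.99 and 1.41. Hs3st1, a heparan sulfate sulfotransferase, had 2.84, 2.22 and 1.48. Most of these ratios rose when rat members were limited to cells with Selp or Ackr1, such as Tm4sf1, a tetraspanin-like protein of endothelial nanopodia, from 1.68 to 2.46 in chimera rat cells.

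The 12 genes at the other end were Esm1, Btnl9, Vav3, Myoz1, Dcn, Nav3, Tnnt3, Id3, Tnni2, Arap2, Myo10 and Nfe2l3. Esm1 (endocan), a proteoglycan of endothelial tip cells, had log2 ratios of -3.05, -1.34 and -1.57. Vav3, an exchange factor for small GTPases, had -1.74, -1.07 and -1.46, and the butyrophilin-like gene Btnl9 had -1.54, -1.08 and -1.12. The ranking also held 4 genes of other cells of muscle, Myoz1, Tnnt3 and Tnni2 of fast myofibres and Dcn of fibroblasts. Transcripts of those cells moved with them. The summed level of the myofibre list (7 of 8 genes measured) was 4389, 12504 and 16757 CPM in all members against 7220, 27783 and 42570 CPM in cells with none of the rule genes, and that of the fibroblast list without Pdgfra (7 genes) was 540, 1768 and 5384 CPM against 770, 11950 and 12593. The part of free RNA and of joined cells in these 4 ratios was not tested.

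**Figure D4:**
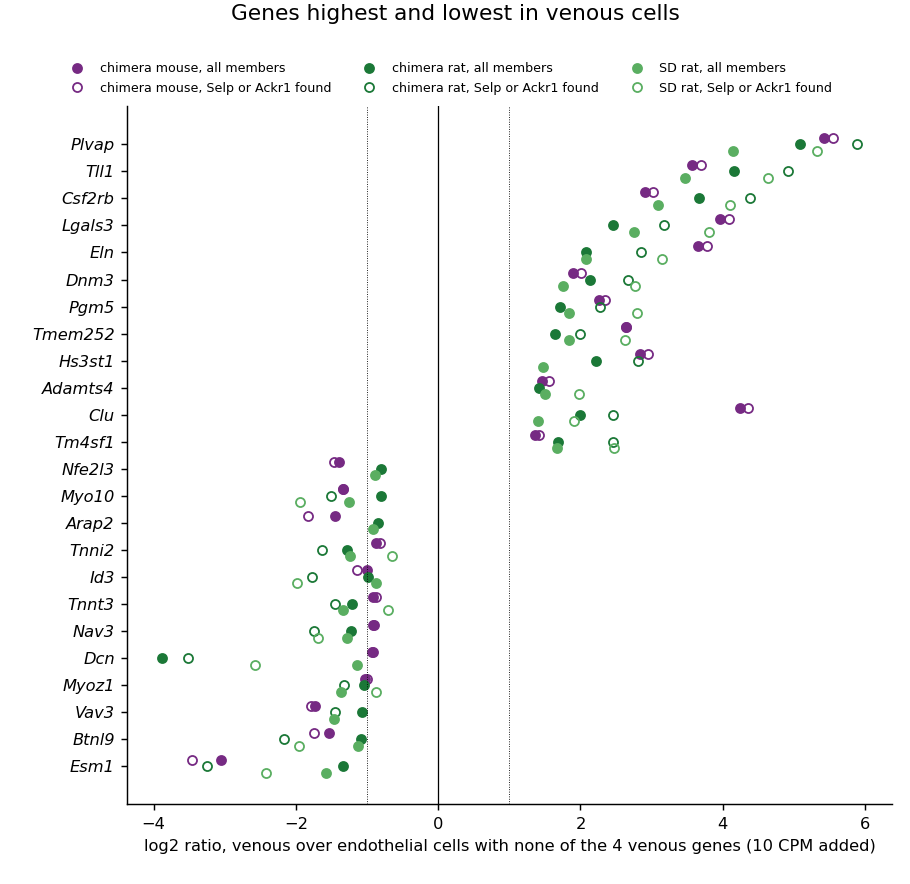
Log2 ratio of venous cells over endothelial cells with none of the 4 rule genes (CPM plus 10) for the 12 highest and 12 lowest genes of the shared ranking; filled points are all members, open points cells with Selp or Ackr1, and dotted lines mark 2-fold. Plvap, at 5.43, 5.09 and 4.15 over all members, was first, and open points of the rats lay mostly farther from 0 than filled ones.

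Transcripts of other cell types were found in cells with Selp or Ackr1 too. The myofibre list summed to 4533, 10983 and 25417 CPM and the fibroblast list to 569, 2530 and 2645 CPM in those of chimera mouse, chimera rat and SD rat, each below the level in cells with none of the rule genes given above. The leukocyte list (11 genes measured, Ptprc being barred by the rule) summed to 644, 116 and 113 CPM against 101, 1602 and 487 CPM in cells with none of the rule genes, of which Cd74, described below, made up 611 CPM in chimera mouse cells. The mural list (9 genes) summed to 686, 1926 and 904 CPM against 287, 1315 and 1088, and was thus above the comparison in both chimera populations. The lymphatic list stood at 271, 7.23 and 32.3 CPM against 60.9, 69.7 and 77.5, and the erythroid list at 2603, 2081 and 315 CPM against 10794, 18010 and 7103. The platelet list (9 genes) summed to 79.5, 30.7 and 68.6 CPM against 38.6, 87.9 and 100.5 CPM, and 5 of its genes had UMIs in the chimera mouse cells. Its genes Gp9, Gp1bb, Gp1ba and Gp6 had no UMI in cells with Selp or Ackr1 of any population. Gp1bb and Gp1ba had none in cells with none of the rule genes or in arterial cells either, so their absence does not set the venous cells apart. Another gene of the platelet list, the integrin chain Itga2b, stood at 38.2, 25.3 and 64.6 CPM and was higher in chimera mouse cells (1.64).

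The cells with Vwf and Lrg1 only were set against endothelial cells with none of the rule genes in the rats. In chimera rat cells 29 of 3605 genes were higher (0.804%) and 83 lower (2.30%), and in SD rat cells 20 of 2988 (0.669%) and 68 (2.28%), with medians over all genes of 0.07 and 0.05. Of the other venous genes, 2 were measured in chimera rat and 3 in SD rat cells, and none passed 2-fold. No capillary gene was lower, and the capillary list medians were 0.54 and 0.47. A median of 9 capillary genes was found in these chimera rat cells and 7 in the SD rat cells, against 5 and 4 in cells with Selp or Ackr1. Bmp4 was higher in both (1.43 and 1.01), as it was in the cells with Selp or Ackr1. Of the lists, Aqp1 (1.20), Bst2 (2152 against 1000.2 CPM), Lmo2 (1.08), Rab27a (1.00) and the pericyte gene Rgs5 (1.13) were also higher in chimera rat cells. The genes lower included 5 of 5 fibroblast genes in chimera rat and 3 of 7 in SD rat cells, and 7 of 7 myofibre genes in SD rat cells. Median depth was higher in these cells (6876 and 4813.5 UMIs) than in cells with none of the rule genes (3538 and 2339), so a gene of low level had more chance of being found in them, and that part was not tested.

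Rat venous cells of the chimera and of the SD rat differed at few genes. Over all members, 63 of 4272 genes were higher in the chimera (1.47%) and 65 lower (1.52%), with a median log2 ratio of -0.10, and 95 and 43 with ratios centred on it. With members limited to cells with Selp or Ackr1, 45 of 2097 genes were higher and 72 lower, a larger share of the genes measured. Of the listed genes outside the rule, Nr2f2 was the one higher over all members (1.75, 167 CPM (143 to 195) against 42.6 CPM (27.6 to 62.9)). Lamb1 (-1.36) and Col1a1 (-1.37) were lower. The level of Nr2f2 in cells with none of the rule genes, given above, was also higher in chimera rat than in SD rat cells. Its difference was thus not particular to venous cells. Among cells with Selp or Ackr1 no gene of the lists that met the filter passed 2-fold. Nr2f2 did not meet it there, since 1 cell held over 20% of its chimera rat UMIs, and had a log2 ratio of 1.61. Venous, adhesion, capillary and chemokine genes outside the rule thus had ratios under 2-fold between the rat cells of the 2 animals wherever they were measured, apart from Nr2f2. Genes of the rule were left out of these calls, since they chose the cells. Among them, the level of Ackr1 given above was more than 2-fold higher in chimera rat than in SD rat cells. That is a description of the chosen cells, which were also deeper in the chimera, and no difference between the animals is read from it. With 1 library each, ratios under 2-fold do not show that the rat cells of the 2 animals were alike.

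The 10 genes highest in chimera rat cells included Camk1d, Lars2, Cmss1, Gphn, Hmgb1, Mrps28, Nsd3, Pdgfb and Rplp2. Camk1d had a log2 ratio of 5.91 in venous cells and 6.24 in cells with none of the rule genes, and Rplp2 2.44 and 2.54. Between 84.3% and 100% of the UMIs of these 10 genes in chimera rat cells lay on the mouse gene of the combined reference, 99.6% for Camk1d and 88.2% for Rplp2, which the SD library does not have. The ratios of these genes therefore include how reads were divided between the genomes. When rat genes alone were counted, Camk1d and Rplp2 changed sign to -0.37 and -0.49. The lowest were Hs6st3 (-6.44, with -6.33 in cells with none of the rule genes), Atp13a4, Glis1 (-3.40 and -2.83), the muscle genes Myl2 (-2.35), Mybpc2 (-2.11) and Ttn, Eif4g2, Rpgr, Morf4l2 and Mex3c. In cells with none of the rule genes, Mybpc2 had -1.70, Eif4g2 -1.65 (against -1.83 in venous cells), Morf4l2 -1.29 (against -1.52) and Mex3c -1.41 (against -1.51), so the differences of these genes lay in the same direction in both classes.

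Within the chimera, mouse and rat venous cells shared an animal and a library. Of 5758 genes, 645 were higher in mouse cells (11.2%) and 579 in rat cells (10.1%), with a median log2 ratio of -0.04. Cells with Vwf and Lrg1 only were 7 of the 111 mouse and 71 of the 138 rat cells, so this comparison mixes species with class. With members limited to cells with Selp or Ackr1, 518 of 3966 genes were higher in mouse cells and 380 in rat cells. The annotations of the 2 genomes differ, so a ratio of a single gene between species includes how its reads were assigned. Over all members, the 10 genes highest in mouse cells were Rpl37, Ifit1, Isg15, Rpl35a, Cd81, Abcg2, Gbp6, Ctla2a, Ftl1 and Gbp5. The 10 highest in rat cells were Vps25, Plac8, Tspan8, Zc3h10, Colec11, Cdc45, Rtn1, Ikzf4, Kxd1 and Rnasek. A ratio of like size was often found in endothelial cells with none of the rule genes: Rpl37 had 6.13 and 5.34, Isg15 5.42 and 5.29, Vps25 -5.82 and -5.02, and Colec11 -4.32 and -4.31. The interferon-induced list had 6 of 9 genes higher and none lower in mouse venous cells (median 1.71), and 6 of 8 higher in mouse cells with none of the rule genes (1.83), so its difference was of like size in both classes.

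Other ratios differed between the classes, and these genes were chosen after their values were seen. Gbp5, a guanylate-binding protein, had 4.28 in venous cells and 2.31 in cells with none of the rule genes. Cxcl10 had 4.18 and 1.36. Both stood at a like ratio with members limited to cells with Selp or Ackr1 (4.19 and 4.29). Sele was higher in mouse cells with Selp or Ackr1 by 2.20 and Slco2a1 by 1.95, whereas Procr was lower by a log2 ratio of -2.07, close to its value outside the venous class (-2.32). Of 3863 genes measured in both, the species ratio of cells with Selp or Ackr1 was above that of cells with none of the rule genes by at least 1 on the log2 scale for 142 and below it for 137. Il33, a nuclear alarmin of venous endothelium chosen in the same way, stood at 8.05 CPM (3.48 to 15.9) in mouse cells with Selp or Ackr1 and at 271 CPM (229.6 to 318) and 230.2 CPM (174 to 298) in chimera rat and SD rat cells, and was found in 5.77%, 56.7% and 38.2% of them. It was thus rare in mouse venous cells and frequent in the venous cells of both rats.

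The MHC class II genes, which present peptides to helper T cells, set the mouse venous cells apart from the other endothelial classes of the same species. Cd74, the invariant chain that accompanies class II molecules, was in the leukocyte list, and the class II chains were chosen after their values were seen. Counts here are those on the gene of the cell's own species. Of the 104 chimera mouse cells with Selp or Ackr1, Cd74 was found in 60 (57.7%, 47.6 to 67.3), H2-Aa in 44 (42.3%, 32.7 to 52.4), H2-Ab1 in 46 (44.2%) and H2-Eb1 in 38 (36.5%). In mouse endothelial cells with none of the rule genes these shares were 3.80%, 3.33%, 2.85% and 3.33%, and in arterial cells 8.41%, 7.48%, 6.54% and 6.54%. Mouse fibroblast-type barcodes, taken as a guide to free RNA, had a higher median depth (15445 UMIs against 10470.5). In them the shares were 5.05% for Cd74, 2.02% for H2-Aa and 3.03% for H2-Eb1. H2-Ab1 was found in 0 of 99 of these barcodes, where the limit taken for a count of 0, 3 counts of the total, is 3.03%. The shares in mouse cells with Selp or Ackr1 were thus well above those of all 3 classes.

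The shares were higher in the mouse cells with Ackr1, which were also deeper (median 10805 UMIs against 8960). Among the 75 with Ackr1 found, Cd74, H2-Aa, H2-Ab1 and H2-Eb1 were found in 62.7%, 48.0%, 52.0% and 41.3%, and among the 29 with Selp but not Ackr1 in 44.8%, 27.6%, 24.1% and 24.1%. For Cd74 the intervals of these shares overlapped (50.7 to 73.6 and 26.4 to 64.3). Cd74 had 587 UMIs over the 104 cells, with at most 34 in 1 cell, so the level did not rest on a single cell. Of the 11 genes of the leukocyte list that were measured, 8 had UMIs in these cells, among them Cd79a, Ms4a1, C1qa, Lyz2 and Tyrobp. Only Cd3e, Cd3g and S100a9 were at 0, where 3 counts of the total are 2.88% of cells. The part of leukocyte transcripts in the class II counts was not tested. Venous cells had been chosen for the lack of Ptprc. When the choice was made after thinning to 1000 UMIs, 3 of 62 chimera mouse members had Ptprc in their full reads, and these held 20 of 464 Cd74 UMIs. Those members are a different set, so these counts do not measure leukocyte transcripts in the 104 cells.

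In the rat cells the corresponding transcripts were found at most at 1 UMI of Cd74 a cell. Cd74 was found in 10 of 67 chimera rat cells with Selp or Ackr1 (14.9%, 7.40 to 25.7) and in 8 of 55 SD rat cells (14.5%, 6.50 to 26.7). Fibroblast-type barcodes gave 17.9% and 8.32%, and cells with none of the rule genes 21.0% and 7.09%, all within those intervals. RT1-Ba was found in 6 chimera rat cells and in 0 of the 55 from the SD rat, where 3 counts of the total are 5.45%, and RT1-Da in 10 and 4 cells. Rat Cd74 was also found in 15.4% of the mouse cells with Selp or Ackr1, close to the 13.1% of mouse fibroblast-type barcodes. A level above that of free RNA was thus seen in the mouse venous cells. On genes of their own species, none was detectable in those of either rat at this depth. Mouse Cd74 was found in 13.4% (6.33 to 23.97) of chimera rat cells with Selp or Ackr1, at 1 UMI a cell. It was found in 3.97% of chimera rat fibroblast-type barcodes and 5.17% of cells with none of the rule genes. For mouse H2-Aa, H2-Ab1 and H2-Eb1 the shares were 2.99%, 7.46% and 2.99%, against 2.91%, 3.70% and 3.07% of those fibroblast-type barcodes. The source of the mouse Cd74 counts was not tested.

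**Figure D5:**
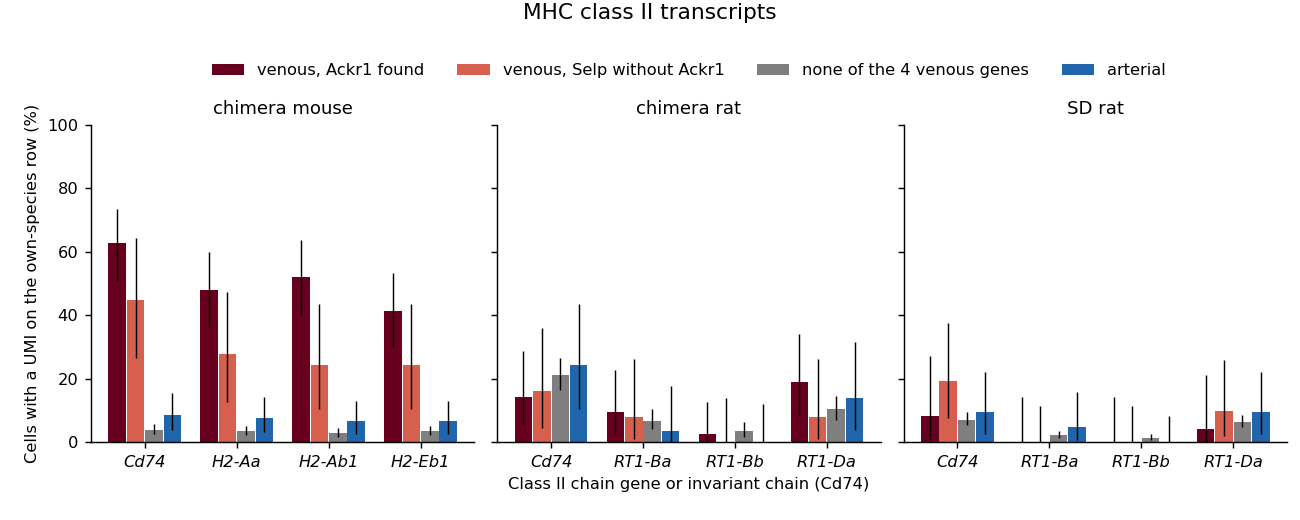
Share of cells (%) with a UMI of Cd74 or of a class II chain gene on the gene of their own species, in venous cells with Ackr1, venous cells with Selp but not Ackr1, endothelial cells with none of the 4 rule genes and arterial cells; lines are exact 95% Clopper-Pearson intervals. Mouse venous cells with Ackr1 reached 62.7% for Cd74 and 52.0% for H2-Ab1, against 3.80% and 2.85% in mouse cells with none of the rule genes.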

How the data were processed

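Single-cell libraries of skeletal muscle from 1 rat-mouse chimera and 1 SD rat were analysed. The deposited values are counts of UMIs per gene and barcode, which the authors made with Cell Ranger 7.1.0 (per the submitters' processing notes). These notes name the builds mRatBN7.2 and GRCm39, and the chimera was counted on both genomes together. Mouse and rat counts of a symbol were added over 16236 symbols named in both species, and levels (CPM) are per 1000000 UMIs on these symbols without mitochondrial genes. A read assigned to the wrong genome stays in the total of its symbol but changes a cell's species share.

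UMIs were summed over cells of a population and class. Ratios are log2 of CPM plus 10. A gene was kept where its mean level gave at least 20 expected UMIs in the smaller group and no cell held over 20% of the UMIs of the higher group, and genes of the rule were left out. With 1 library a group, no test was made across cells. The 12 genes named in each direction were kept in all 3 populations with the same direction and ranked by the ratio nearest 0. Between populations, the 10 highest and 10 lowest were named among genes found in at least 10% of cells of the higher group, together with any gene of a list. Values of a few genes are not reported here. The members, lists and alternatives were chosen with earlier results of these data known. Depth set what could be seen: SD venous cells were shallower than chimera mouse cells, and fewer of their genes were kept.

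Scripts used Python 3.11.15 with numpy 2.4.6, scipy 1.17.1, pandas 2.3.3, scanpy 1.11.5 (Scrublet with an expected doublet rate of 8%) and matplotlib 3.10.9, and were tested on simulated data. Cells were thinned to 1000 UMIs at random with a fixed seed, shallower cells being left out.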

Additional observations from a re-analysis of the deposited data

Results flagged for a closer look

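Bgn, Ctsh, Mgp, Sybu and Tagln passed 2-fold in opposite directions in chimera mouse cells and in those of at least 1 rat when cells with Selp or Ackr1 were set against endothelial cells with none of the 4 rule genes, and these differences between populations were not tested. Bgn, the matrix proteoglycan biglycan, had a log2 ratio of 3.88 in chimera mouse cells (303 against 11.3 CPM) and -1.02 in SD rat cells (84.8 against 182 CPM), with 0.28 in chimera rat cells. Mgp, an inhibitor of calcification, had 2.94 in chimera mouse cells (1022 against 125 CPM) and -1.27 in SD rat cells (1207 against 2922 CPM), with -0.20 in chimera rat cells. Tagln, an actin-binding protein of smooth muscle, had 2.23 in chimera mouse cells (402 against 78.0 CPM) and -1.26 in SD rat cells (117 against 295 CPM), while in chimera rat cells, where 1 cell held over 20% of its UMIs, it had 1.07 (1031 against 485 CPM), the direction of the mouse cells. Bgn and Mgp are also made by fibroblasts and Tagln by mural cells, whose marker lists moved in the rats as given in the report, and the part of those cells was not tested. Ctsh, a lysosomal protease, had 2.11 in chimera mouse cells and was lower in both rats, at -1.91 and -2.00, while Sybu had -1.12 in chimera mouse cells and 1.25 in chimera rat cells.

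The 40 chimera barcodes of mixed species that met the venous rule lay outside all comparisons. They included 25 with Selp or Ackr1 and 15 with Vwf and Lrg1 only, had a median of 9314.5 UMIs, and 1 was a predicted doublet.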

How the results depend on the processing

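Of the shares and counts of genes recomputed under each alternative, 123 stayed within the limits set (the 95% interval of a share, 1.5 times a count) and 46 moved beyond them. Of values of single genes, 6112 stayed, 1989 moved and 4 changed sign: Col1a1 between chimera rat and SD rat cells, to 0.16 without Lrg1 in the rule, Cd74 between mouse and rat cells, to -0.37 with the gate read after thinning (1 chimera rat member with Ptprc in its full reads then held 308 of 319 Cd74 UMIs), and Camk1d and Rplp2, to -0.37 and -0.49 with genes of the cell's own species alone. Below, "venous" counts are genes of venous over other endothelial cells, "rat" counts those of chimera rat over SD rat cells and "species" counts those of mouse over rat cells. With 3 or more venous genes, the shares were 8.72%, 6.85% and 2.73% (chimera mouse, chimera rat, SD rat), the chimera rat venous counts 167 higher and 216 lower, the rat count 27 higher and the species count 341 lower. Without Lrg1 the shares were 8.17% and 3.97% in chimera rat and SD rat cells, the chimera rat venous count 154 higher, the rat count 33 higher and the species count 367 lower. With the gate read on 1000 UMIs a cell, the shares were 8.37%, 8.03% and 4.55%, the venous counts 44 (chimera rat) and 21 (SD rat) higher, the rat counts 14 higher and 30 lower and the species counts 411 higher and 134 lower. With species by the majority of UMIs, the chimera rat share was 15.5% and its venous count 204 lower. With Selp or Ackr1 required, an alternative chosen after seeing the data, the shares were 8.83% and 4.55%, the chimera rat venous count 154 higher and the species count 380 lower. With a deeper comparator, also chosen after seeing the data, the chimera rat venous count was 185 higher. With own-species genes alone the rat count was 103 lower. Adding 1 CPM gave venous counts of 387, 203 and 123 lower and rat counts of 99 higher and 133 lower. Centring on the median gave 160 lower in chimera mouse cells and rat counts of 95 and 43. At least 50 expected UMIs gave venous counts of 154, 72 and 47 lower, rat counts of 27 and 31 and species counts of 406 and 347. Without genes that had reads on mouse genes in chimera rat cells, the rat counts were 32 and 25. Leaving out doublets, shared barcodes or cells under 1000 UMIs, or taking all UMIs as the total, moved none of the shares or counts run under them, nor did leaving out cells over 10% mitochondrial UMIs, under which the venous counts were not run. No paired analysis was possible because each group had 1 sample.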
